A study of Mus musculus with 12 samples.

Results

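Solute carriers are membrane proteins that move amino acids, sugars, metals, vitamins, lipids, nucleosides and ions into, out of and between the compartments of a cell. They were followed here in mouse microglia, the resident macrophages of the brain, through every listed gene whose symbol begins with Slc and a digit. Of 269 such genes, the 42 mitochondrial carriers of the Slc25 family and 11 genes excluded by name (among them the glutamate carriers Slc1a2 and Slc1a3, the glucose carriers Slc2a1 and Slc2a3 and the iron carriers Slc11a1, Slc11a2 and Slc40a1) were left out. The remaining 216 genes, of 14541 listed, are called carriers here and were sorted into 14 classes, most of them by substrate. Of the classes, 1 holds 6 genes that are only named after a carrier or are unclassed. The scaffold gene Slc9a3r1 and the pseudogene Slc2a4rg-ps belong to it, and the counts of carriers include this class.

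Microglia came from the forebrains of wild-type pups aged 7 to 9 postnatal days and were selected with magnetic beads against CD11b, a protein that monocytes, border macrophages and neutrophils also carry. For 6 h the cells received 500 nM recombinant Hevin (a protein that astrocytes secrete), 50 ng/mL of the bacterial endotoxin lipopolysaccharide (LPS), which cells sense through Toll-like receptor 4, or growth medium alone (Media), at 40000 to 80000 cells per well. Each group holds 4 libraries of poly(A) RNA, numbered 1 to 4, and a number recurs once in each group. No source used here says whether libraries came from separate animals or cultures, so the p-values speak of library-to-library spread alone, which may be technical. Levels are FPKM (fragments scaled to gene length and library size), and whole reads recovered from them put the depth at 18343996 to 27361665 per library.

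Carriers work in functional chains. In the plasma membrane, the heavy chain encoded by Slc3a2 pairs with light chains such as Slc7a5, Slc7a7 and Slc7a8 that exchange amino acids, while sodium-driven carriers such as Slc1a5 and Slc38a1 load the cell with the amino acids that are exchanged. In the metal families, the Slc39 (ZIP) carriers bring zinc, iron or manganese into the cytosol, and the Slc30 (ZnT) carriers move zinc out of it. Lysosomal carriers such as Slc15a3, Slc17a5, Slc29a3 and Slc38a9 return the products of digestion to the cytosol or report on them, which matters in a cell that lives by phagocytosis.

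The libraries carried the markers of microglia, but other cells were present. The summed level of 8 microglial markers was 1120 to 1560 FPKM in Hevin, 536 to 791 in LPS and 637 to 847 in Media, although Tmem119 averaged at most 2.52 FPKM in any group. The 4 listed neutrophil markers summed to 1880 to 2030 FPKM in the libraries numbered 2 and to 37.6 to 101 elsewhere. The 4 markers of choroid plexus and ependyma, nearly all of it Ttr, summed to 188 to 235 FPKM in number 1 and to 1970 to 2650 in number 3. The astrocyte list summed to 19.6 to 37.9 FPKM in Hevin, 110 to 229 in LPS and 49.1 to 78.8 in Media, nearly all of it Gja1, while the other 5 astrocyte markers averaged 1.0 FPKM or less in each group. Of the markers, 6 of 8 microglial ones were called higher in Hevin than in Media, and 1 was higher and 3 lower in LPS. Of the neutrophil markers 3 of 4 were called higher in LPS than in Media. Of 4 border macrophage markers, 1 was higher and 1 lower in each treatment, and the mannose receptor Mrc1 averaged 71.7 FPKM in Hevin, 178 in LPS and 161 in Media. Over all genes 21.4% were called in Hevin and 43.7% in LPS; the part of those cells in the carrier results was not tested. In such mixed RNA, fewer cells of a type and less RNA per cell cannot be told apart.

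Carrier transcripts covered a wide range of levels. In Media 6 carriers averaged at least 100 FPKM, namely Slc3a2, Slc15a3 (a lysosomal carrier of peptides and histidine), Slc38a2 (sodium-driven uptake of small neutral amino acids), Slc48a1 (lysosomal heme export), Slc6a6 (taurine uptake) and Slc23a2 (vitamin C uptake). In all, 68 averaged at least 10 FPKM and 153 at least 1. Only 164 of the 216 reached 1 FPKM in at least 4 libraries and were tested. For 3 of those, every library at 1 FPKM or more lay in a single group (Slc7a15 in Hevin, Slc26a4 in LPS, Slc16a7 in Media). Others also reached 1 FPKM elsewhere, but too rarely to pass without the group in which they were high. These include Slc46a1 and Slc18b1 with Hevin and Slc10a1 with LPS. The counts of calls below include all of these, but their own calls are not taken as support. The 52 that were not tested averaged at most 1.04 FPKM in any group. Among them are typical neuronal genes: the vesicular glutamate carriers Slc17a6, Slc17a7 and Slc17a8, the vesicular GABA carrier Slc32a1 and the chloride exporter Slc12a5.

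After Hevin, the largest increase was in Slc46a1, the proton-coupled folate carrier, followed by the zinc importer Slc39a4 and the neutral amino acid exchanger Slc7a8. The largest decrease was in Slc1a5, which takes up glutamine and other neutral amino acids. In all, 21 carriers were higher and 21 lower in Hevin than in Media at a limma adjusted p under 0.05, which is 25.6% of the 164 tested. Of all 11242 genes tested 21.4% were called, 10.8% higher and 10.6% lower, so the share of carriers lay near that of all genes. Each of the 42 calls had the same direction in 4 of 4 numbered pairs, which a fit paired by number largely brings with it. For 19 of them the Hevin and Media libraries did not overlap. No such share was taken over all genes, so neither count sets the carriers apart.

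Slc46a1 had 4.25, 4.63, 3.37 and 4.08 FPKM in Hevin libraries 1 to 4, against 1.07, 0.941, 1.23 and 0.754 FPKM in Media. Every Hevin library was above every Media library (log2 fold change 1.35 ± 0.11 SE on the log2(FPKM + 1) scale, which understates changes at such low levels). Outside Hevin only Media 1 and Media 3 reached 1 FPKM, so Slc46a1 passed the filter only with Hevin, where it was high. Its difference between Hevin and Media is therefore given as a description with no test. LPS averaged 0.681 ± 0.162 FPKM (SD, n = 4), and its call against Media was not made (limma adjusted p = 0.0942). The other folate carrier, Slc19a1, averaged 3.33 FPKM in Hevin and 3.02 in Media and did not pass the test (adjusted p = 0.617). To show the sequence at the start of the carrier that rose most, the RefSeq promoter of Slc46a1 is given as 300 bases around the annotated start (GRCm38.p6, chr11:78465451-78465750, plus strand). No letter is in capitals, because neither pattern marked in the promoters printed later was found in it.
Slc46a1: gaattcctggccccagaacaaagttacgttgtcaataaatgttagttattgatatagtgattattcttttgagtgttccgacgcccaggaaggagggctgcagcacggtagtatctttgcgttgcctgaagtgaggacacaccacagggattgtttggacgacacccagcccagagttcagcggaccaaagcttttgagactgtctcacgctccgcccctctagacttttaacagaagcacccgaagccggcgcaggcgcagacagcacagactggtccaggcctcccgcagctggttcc

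Zinc carriers moved both ways after Hevin. Slc39a4, which is best known for zinc uptake in the intestine, had 25.9, 18, 21.3 and 22.5 FPKM in Hevin, against 14.5, 7.67, 7.65 and 10.7 FPKM in Media. The groups did not overlap, and number 1 was the highest of each group (log2 fold change 1.08 ± 0.14, limma adjusted p = 0.000299). Slc39a14, an importer of zinc, manganese and iron, had 21.1, 15.2, 18.4 and 18.9 FPKM in Hevin, against 28.2, 23, 26.3 and 27.6 in Media. All 4 Hevin libraries were lower (log2 fold change -0.49 ± 0.11, adjusted p = 0.00869), but the call ended without the replicate number as a block (adjusted p = 0.143). Of 24 metal carriers tested, 2 were higher and 5 lower (29.2% called, beside 21.4% of all genes). Their median log2 fold change was 0.01, beside a median of 0.00 over all genes. The lower ones also included the zinc importers Slc39a6 and Slc39a12 and the zinc exporters Slc30a1 and Slc30a4. Without the block, only Slc39a4 of the metal carriers was called.

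Amino acid carriers were the class with the largest share called after Hevin among those with at least 10 members tested, 4 higher and 7 lower of 24 (45.8%, beside 21.4% of all genes). Without the block 2 were higher and 3 lower, where 7.37% of all genes were called. Both counts of higher carriers include Slc7a15, which passed the filter only through Hevin, so its call is not support. Slc1a5 (GENCODE M21 on mm10, chr7:16781340-16798274, plus strand) had 10.8, 10.4, 9.47 and 11.5 FPKM in Hevin, against 27.1, 24.5, 21 and 23.7 FPKM in Media. The Hevin libraries lay close together and far below Media (log2 fold change -1.12 ± 0.10, limma adjusted p = 2.79e-05). Slc7a5, the exchanger of large neutral amino acids, had 54.1, 65.1, 62.9 and 59.9 FPKM in Hevin, against 83.8, 102.8, 99.1 and 94.3 in Media, with no overlap (log2 fold change -0.64 ± 0.08, adjusted p = 0.000166). Slc7a1, which imports arginine and lysine, had 38.2, 45.5, 41.8 and 38.4 FPKM in Hevin, against 54.2, 66.7, 60.1 and 56.6 in Media. It too was lower in every Hevin library (log2 fold change -0.52 ± 0.06, adjusted p = 0.00011).

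Slc7a8 went the other way, with 97.6, 64.8, 106.1 and 94.0 FPKM in Hevin against 46.7, 44.8, 58.1 and 50.7 in Media. Hevin 2 was the lowest of its group but still above every Media library (log2 fold change 0.83 ± 0.09, limma adjusted p = 8.33e-05). Of the light chains named above that can pair with Slc3a2, Slc7a8 was thus called higher and Slc7a5 lower. Slc7a7 was called higher too (log2 fold change 0.40, adjusted p = 0.0101), but that call ended without the block. Slc3a2 itself averaged 726 ± 14.1 FPKM in Hevin and 842.8 in Media, a difference of -0.21 ± 0.06 on the log2 scale (adjusted p = 0.0368) whose call ended without the block, with quantile normalization, with no filter and without any 1 Hevin or Media library. The uniporter of branched-chain amino acids Slc43a2 was higher, at 75.9 FPKM in Hevin against 48.8 in Media, with overlapping libraries (adjusted p = 0.00667, and 0.306 without the block). Slc1a4, a sodium-driven carrier of alanine and serine, had a log2 fold change of -0.30 (adjusted p = 0.0111), with a call that ended without the block.

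The RefSeq promoter of Slc1a4 (GRCm38.p6, chr11:20332664-20332963, minus strand) is shown because it holds the pattern TGATGNAA, known from promoters of genes that answer amino acid shortage through Atf4, itself a gene in the list of carrier partners below. Both strands were searched, and the capitals mark the match, which reads on the opposite strand and begins 4 bases before the annotated start. The pattern occurs in 4.51% of 27025 genes with a promoter and in 5 of 166 carriers with one (Slc1a4, Slc7a7, Slc9a9, Slc23a3 and Slc50a1). Of the carriers called after Hevin and given a promoter, it occurred in 1 of 18 that were higher and 1 of 14 that were lower.
Slc1a4: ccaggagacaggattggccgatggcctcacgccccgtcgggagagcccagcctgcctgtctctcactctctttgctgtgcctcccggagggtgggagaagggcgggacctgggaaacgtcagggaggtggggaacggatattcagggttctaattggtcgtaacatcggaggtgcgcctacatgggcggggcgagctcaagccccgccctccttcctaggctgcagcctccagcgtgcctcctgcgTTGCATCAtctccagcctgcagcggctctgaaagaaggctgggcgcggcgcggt

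Carriers of lipids, anions, cations and lysosomal products were among the other calls. Slc27a1, a fatty acid carrier, had 14, 13.8, 17.2 and 19 FPKM in Hevin, against 7.96, 8.03, 8.13 and 10.5 in Media (log2 fold change 0.81 ± 0.12, limma adjusted p = 0.000727). The lowest Hevin library was above the highest Media library, which was Media 4. Slc22a4, the carrier of the antioxidant ergothioneine, averaged 46.9 FPKM in Hevin and 30.3 in Media with no overlap (adjusted p = 0.000405). Slc17a5, which exports sialic acid from lysosomes, averaged 10.9 FPKM in Hevin and 7.09 in Media with no overlap (adjusted p = 0.00238). Slc4a11, a member of the bicarbonate carrier family, fell to 1.02 ± 0.240 FPKM in Hevin, against 2.58 in Media (adjusted p = 0.000166). Slc46a3, a lysosomal relative of the folate carrier, fell to 2.60 ± 0.346 FPKM in Hevin, against 4.77 in Media (adjusted p = 0.00241).

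Of the 42 calls in Hevin, 13 were kept without the block (8 higher, 5 lower), where 7.37% of all genes were called, 25 without any 1 library, and 12 in every alternative run. Those 12 were Slc46a1, Slc39a4, Slc7a8, Slc27a1, Slc22a4, Slc17a5, Slc9a3r1, Slc1a5, Slc4a11, Slc46a3, Slc7a5 and Slc7a1. Of these, Slc46a1 passed the filter only with Hevin, so its call is not support, and Slc9a3r1 is a scaffold gene named after a carrier. The count of lower carriers was 13 without Media 1, 12 without Media 3, 11 without Media 4 and 13 without Hevin 4.

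**Figure D1:**
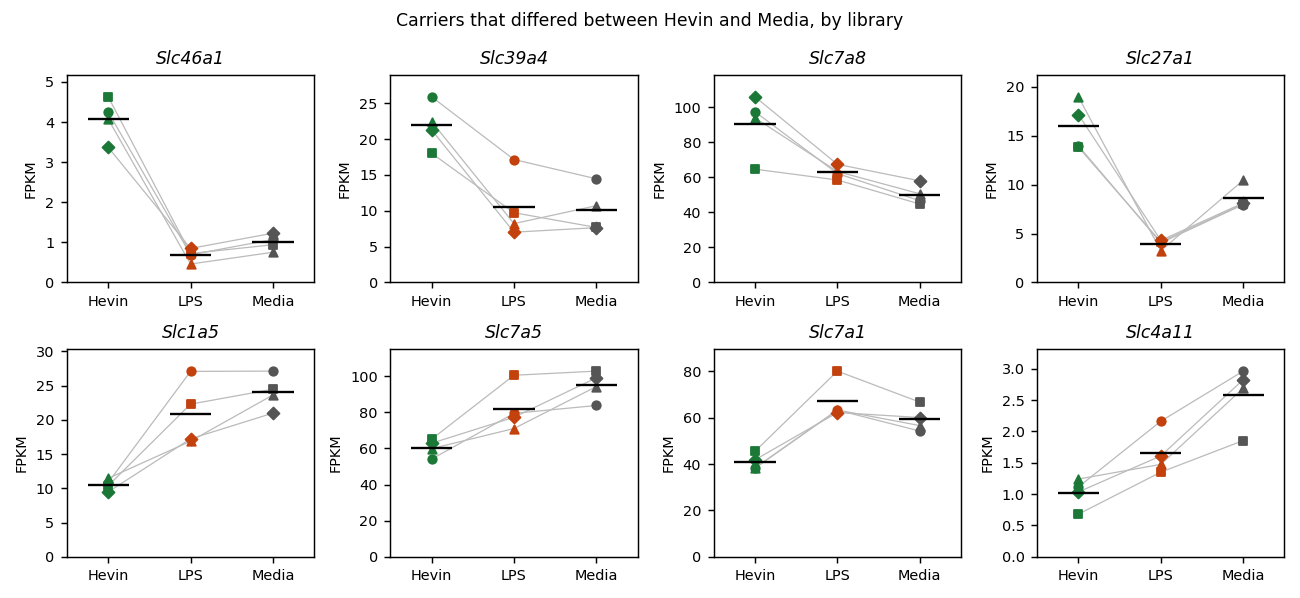
FPKM (linear axis from 0) of 8 carriers in each library, with Hevin, LPS and Media from left to right; circles, squares, diamonds and triangles are numbers 1 to 4, grey lines join libraries of a number, and black bars are group means. The 4 carriers of the upper row sit higher in every Hevin library than in any Media library, and the 4 of the lower row sit lower.

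After LPS, the glucose carrier family member Slc2a6 rose most, followed by Slc28a2, a sodium-driven carrier of purine nucleosides, the metal importer Slc39a14 and the choline carrier Slc44a1. The sugar phosphate carrier Slc37a2 fell most. LPS changed 86 of the 164 carriers, 37 higher and 49 lower, or 52.4%, while 43.7% of all genes tested were called (21.5% higher, 22.2% lower). The median log2 fold change was -0.06 over the carriers and -0.02 over all genes. Of the 86 calls, 84 had the same direction in 4 of 4 pairs, and for 42 the libraries of both groups did not overlap. Again no such share was taken over all genes. With upper quartile scaling 34 carriers were higher and 63 lower, and over all genes that scaling gave 1984 higher and 3202 lower, against 2416 and 2498.

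Slc2a6 had 15.6, 14.6, 26.1 and 25 FPKM in LPS, against 2.05, 0.676, 1.86 and 2.12 FPKM in Media. The lowest LPS library was several times the highest Media library (log2 fold change 2.99 ± 0.12, limma adjusted p = 2.62e-08). In Hevin it averaged 2.48 ± 0.779 FPKM, and that small difference from Media (adjusted p = 0.0437) ended in 14 of the alternatives. Slc2a6 was the only carrier of sugars, polyols and sugar phosphates called higher in LPS. Another 7 of the 11 tested were lower (63.6%, beside 22.2% of all genes), and the class median was -0.39.

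The promoter of Slc2a6 (GRCm38.p6, chr2:27027949-27028248, minus strand) is shown as that of the carrier with the largest change, and that of Slc13a3 (chr2:165473148-165473447, minus strand) because it holds the pattern of GGG, any 3 bases and TTCC, a form of the site that the LPS-activated factor NF-κB is known to bind. Both strands were searched, and capitals mark the match, which in Slc13a3 begins 65 bases before the annotated start. These letters are not in the window of Slc2a6. They occur in 6.31% of 27025 genes and in 12 of 166 carriers. Of the carriers called in LPS and given a promoter, 2 of 32 that were higher held it (Slc13a3 and the metal importer Slc39a8) and 0 of 37 that were lower. The letters of the metal response element, TGCNCNC, were searched as well and occur in 53.6% of genes and in 108 of the 166 carriers.
Slc2a6: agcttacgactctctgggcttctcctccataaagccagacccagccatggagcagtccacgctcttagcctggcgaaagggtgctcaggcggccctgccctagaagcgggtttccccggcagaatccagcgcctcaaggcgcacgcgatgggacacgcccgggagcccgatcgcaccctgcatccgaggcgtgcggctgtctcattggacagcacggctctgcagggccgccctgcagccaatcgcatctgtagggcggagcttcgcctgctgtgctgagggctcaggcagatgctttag
Slc13a3: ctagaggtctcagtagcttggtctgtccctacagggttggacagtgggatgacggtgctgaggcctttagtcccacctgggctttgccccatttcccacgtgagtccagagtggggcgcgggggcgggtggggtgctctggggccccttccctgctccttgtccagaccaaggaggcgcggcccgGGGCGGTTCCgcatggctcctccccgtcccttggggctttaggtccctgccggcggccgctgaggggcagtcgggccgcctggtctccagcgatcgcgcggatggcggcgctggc

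Slc13a3, a sodium-driven carrier of succinate and other dicarboxylates, had 11.7, 6.75, 11.5 and 14.1 FPKM in LPS, against 3.55, 2.5, 5.27 and 3.35 in Media. The groups did not overlap, and number 2 was lowest in each (log2 fold change 1.35 ± 0.15, limma adjusted p = 3.08e-05). Slc28a2 had 10.4, 2.38, 16.9 and 19.6 FPKM in LPS, against 1.06, 0.595, 2.58 and 1.37 in Media. LPS 2, from the number rich in neutrophil markers, fell below Media 3, so the groups overlapped, while each LPS library was above the Media library of its number (log2 fold change 2.25 ± 0.31, adjusted p = 0.000177). Without LPS 2 the log2 fold change was 2.69 ± 0.17 (adjusted p = 9.23e-07), and without all libraries of number 2 it was 2.64. Slc43a3, a carrier of purine nucleobases, averaged 18.6 FPKM in LPS and 11.8 in Media with no overlap (adjusted p = 0.00031).

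**Figure D2:**
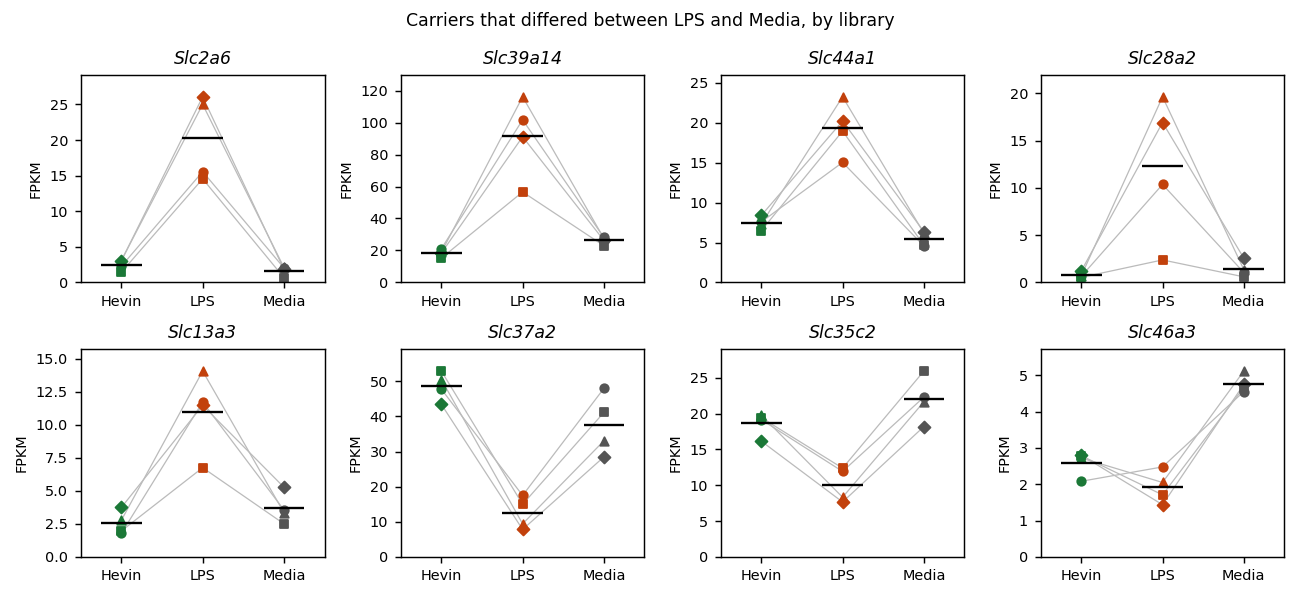
FPKM (linear axis from 0) of 8 carriers in each library, with Hevin, LPS and Media from left to right; circles, squares, diamonds and triangles are numbers 1 to 4, grey lines join libraries of a number, and black bars are group means. Slc2a6, Slc39a14, Slc44a1 and Slc13a3 are higher and Slc37a2, Slc35c2 and Slc46a3 lower in every LPS library than in any Media library, and the squares show the low Slc28a2 value of LPS 2.

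Among metal carriers in LPS, 11 of 24 tested were higher (45.8%, beside 21.5% of all genes) and 4 lower (16.7%, beside 22.2%), with a median log2 fold change of 0.18, beside -0.02 over all genes. Slc39a14 (GENCODE M21 on mm10, chr14:70303469-70351425, minus strand) had 101.7, 56.6, 91.1 and 116.1 FPKM in LPS, against 28.2, 23, 26.3 and 27.6 in Media. LPS 2 was the lowest of its group and still above every Media library (log2 fold change 1.72 ± 0.11, limma adjusted p = 5.48e-07). The copper importer Slc31a1 had 44.6, 49.8, 55.8 and 57.2 FPKM in LPS, against 28.5, 34.6, 35.1 and 30.8 in Media, with no overlap (adjusted p = 2.02e-05). Its relative Slc31a2 averaged 50.2 FPKM in LPS and 32.2 in Media, also with no overlap (adjusted p = 4.24e-05).

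The other higher metal carriers were the ZIP importers Slc39a1, Slc39a2, Slc39a8, Slc39a10 and Slc39a12, the zinc carriers of the secretory pathway Slc30a6 and Slc30a7, and the magnesium carrier Slc41a2. The lower ones were Slc30a1, which exports zinc across the plasma membrane, Slc39a3, Slc39a13 and Slc41a3. With quantile normalization 9 metal carriers were higher and 4 lower, with upper quartile scaling 11 and 5, and without the block 7 and 1. Slc39a4, higher in Hevin, averaged 10.5 ± 4.56 FPKM in LPS and 10.1 in Media (adjusted p = 0.917).

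**Figure D3:**
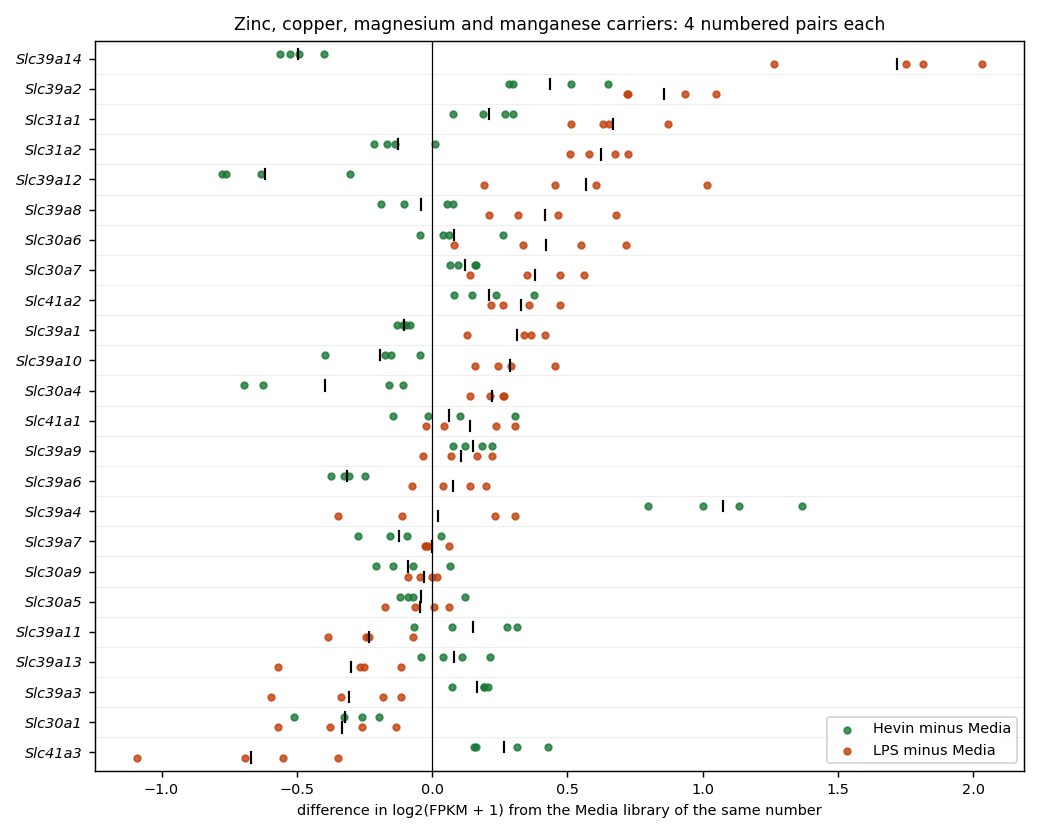
Difference in log2(FPKM + 1) from the Media library of the same number (x axis) for the 24 metal carriers tested (rows, ordered by the LPS mean); green points are the 4 Hevin pairs, orange points the 4 LPS pairs and black ticks their means. Slc39a14 lies right of 0 in 4 LPS pairs and left of it in 4 Hevin pairs, and Slc39a4 lies right of 0 in the Hevin pairs.

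Lipid carriers were called in 7 of 8 cases in LPS, 2 higher and 5 lower, beside 43.7% of all genes (21.5% higher, 22.2% lower), and without the block 2 were higher and 3 lower. Slc44a1 had 15.0, 19, 20.2 and 23.2 FPKM in LPS, against 4.58, 4.68, 6.37 and 6.18 in Media, with no overlap (log2 fold change 1.65 ± 0.10, limma adjusted p = 4.01e-07). Its relative Slc44a2, also a choline carrier, averaged 14.8 FPKM in LPS and 21.6 in Media (adjusted p = 0.000784, and 0.238 without the block). Slc27a1, which was higher in Hevin, fell to 3.94 ± 0.470 FPKM in LPS, against 8.64 in Media, with no overlap (adjusted p = 8.81e-05). Slc10a1, the bile acid carrier of liver, averaged 2.13 ± 0.293 FPKM in LPS and 0.676 in Media. Outside LPS only Media 3 reached 1 FPKM, so Slc10a1 passed the filter only with LPS, where it was high. Its values are given as a description with no test, although the counts of higher lipid carriers include it.

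Lower calls among carriers of sugar products and of the Slc35 family were led by a sugar phosphate carrier of the endoplasmic reticulum. Slc37a2 had 17.5, 15.0, 7.78 and 9.38 FPKM in LPS, against 48.0, 41.1, 28.5 and 33.0 in Media. All LPS libraries were below all Media libraries (log2 fold change -1.57 ± 0.13, limma adjusted p = 5.08e-06). The sialic acid exporter Slc17a5, higher in Hevin, fell to 3.92 FPKM in LPS, against 7.09 in Media (adjusted p = 0.000169). Of 21 members tested of the Slc35 family, known for nucleotide sugar carriers that feed glycan synthesis, 7 were lower, 2 higher and 12 not called. The class was taken as the whole family, and not every member is an established nucleotide sugar carrier. The share called, 42.9%, lay near the 43.7% of all genes, with 33.3% lower beside 22.2%. Without the block 4 were lower. Slc35c2 averaged 10.1 ± 2.43 FPKM in LPS and 22 in Media with no overlap (adjusted p = 6.42e-06).

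Peptide and lysosomal carriers did not share a direction. Slc15a3 had 578, 547, 624 and 613 FPKM in LPS, against 344, 363, 431 and 403 in Media, with no overlap (log2 fold change 0.62 ± 0.06, limma adjusted p = 1.04e-05). That rise was lost with quantile normalization, where the log2 fold change was 0.02 (adjusted p = 0.849), and 28.1% of its exonic bases overlap Tmem132a on the opposite strand. Slc15a2, a peptide carrier of the plasma membrane, had 16.3, 22.9, 4.23 and 6.35 FPKM in LPS, against 5.70, 8.42, 1.38 and 2.34 in Media. Each LPS library was above its Media partner, while the numbers differed so much that the groups overlapped (log2 fold change 1.25 ± 0.08, adjusted p = 5.48e-07, and 0.15 without the block). Slc46a3 fell to 1.92 ± 0.450 FPKM in LPS, against 4.77 in Media with no overlap (adjusted p = 7.66e-05). Slc38a9, the lysosomal arginine sensor that signals to the kinase complex mTORC1, averaged 1.71 FPKM in LPS and 3.28 in Media with no overlap (adjusted p = 0.000176).

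Amino acid carriers were split in LPS, with 6 higher and 7 lower of 24 (54.2% called, beside 43.7% of all genes). With quantile normalization 3 were higher and 10 lower. Slc38a1, which takes up glutamine, had 85.0, 106.6, 72.3 and 71.6 FPKM in LPS, against 41.3, 57.5, 48.8 and 44.5 in Media, with no overlap (log2 fold change 0.78 ± 0.07, limma adjusted p = 1.18e-05). The heavy chain Slc3a2 averaged 1029 ± 56.4 FPKM in LPS and 842.8 in Media, a log2 fold change of 0.29 (adjusted p = 0.00419) that was -0.48 with quantile normalization (adjusted p = 0.000642). Slc7a7, a light chain that exports cationic amino acids in exchange for neutral ones, averaged 11.8 FPKM in LPS and 8.13 in Media with no overlap (adjusted p = 0.00171). Slc1a5 averaged 20.9 ± 4.82 FPKM in LPS and 24.1 in Media and did not pass the test (adjusted p = 0.106).

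Among ion carriers, Slc26a4 (pendrin, an exchanger of chloride, iodide and bicarbonate) had 2.03, 1.76, 2.59 and 3.18 FPKM in LPS and at most 0.201 FPKM in any Media library. Because it passed the filter only through LPS, the group in which it was high, its values are given as a description with no test. The sodium bicarbonate carrier Slc4a7 averaged 20.3 FPKM in LPS and 12.7 in Media with no overlap (adjusted p = 0.000483). The sodium-calcium exchanger Slc8a1 averaged 1.78 FPKM in LPS and 3.87 in Media (adjusted p = 7.61e-05, and 0.0917 without the block). The taurine carrier Slc6a6 averaged 128 FPKM in LPS and 191 in Media (adjusted p = 0.000128, and 0.0521 without the block), and the creatine carrier Slc6a8 averaged 23 FPKM in LPS and 31.8 in Media with no overlap (adjusted p = 0.000588). Of 8 carriers of neurotransmitters and osmolytes, 3 were lower and 0 higher (37.5% called, beside 43.7% of all genes), where 2 of the 3 were kept without the block. The calcium exchanger Slc24a5 rose to 4.79 FPKM in LPS, against 2.06 in Media (adjusted p = 0.000285), but 39.5% of its exonic bases overlap Myef2 on the opposite strand. In LPS, 61 of the 86 calls were kept without any 1 library, and without the block 22 carriers were higher and 25 lower, where 25.8% of all genes were called.

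**Figure D4:**
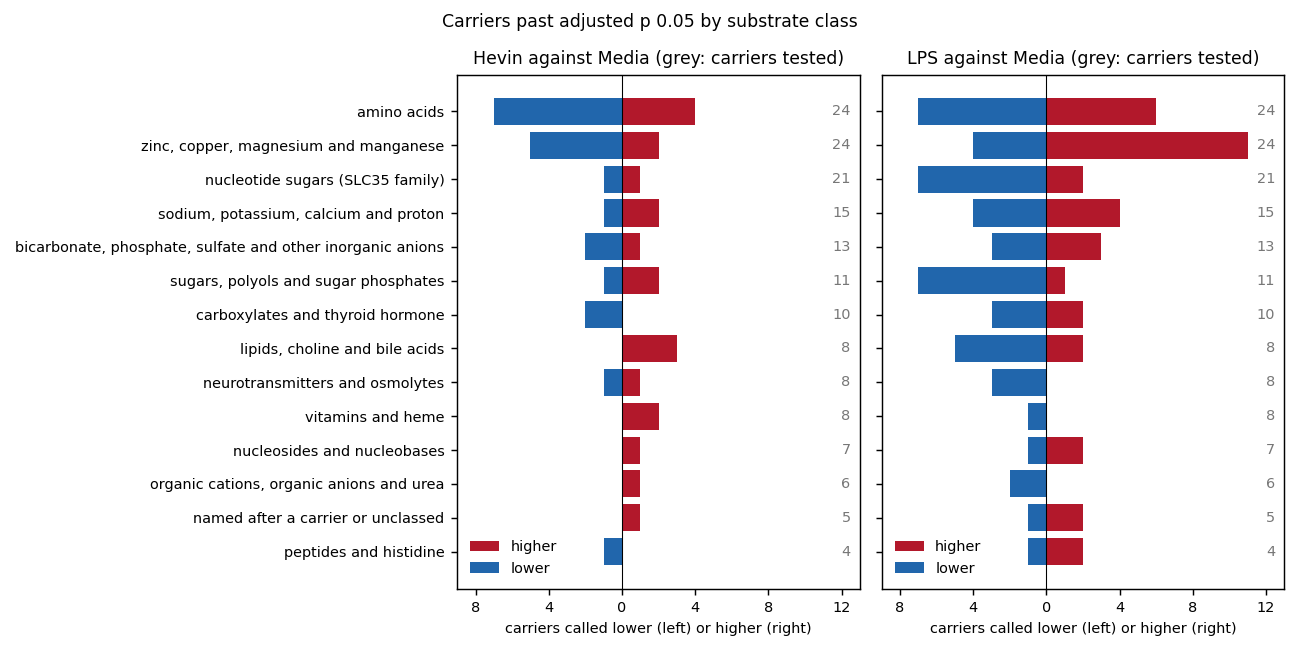
Number of carriers past a limma adjusted p of 0.05 by substrate class (rows), lower to the left of 0 and higher to the right, for Hevin against Media (left) and LPS against Media (right); grey numbers are carriers tested. In LPS the metal class has 11 higher and the sugar class 7 lower.

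Hevin and LPS libraries were also set against each other, in the same fit, so the Media libraries enter the estimate of the spread. Here 54 carriers were higher and 45 lower in Hevin than in LPS, or 60.4% of those tested, beside 57.9% of all genes (29.9% higher, 28% lower). For 65 of the 99 calls the libraries did not overlap, a share not taken over all genes. Without the block 73 calls were kept, where 41.7% of all genes were called. Slc37a2 (log2 fold change 1.95, limma adjusted p = 5.72e-07), Slc27a1 (1.78, adjusted p = 4.85e-07) and Slc46a1 (1.6) were the carriers furthest above LPS. No test is given for Slc46a1, which passed the filter only with Hevin. Slc28a2 (-2.63, adjusted p = 3.33e-05), Slc2a6 (-2.60, adjusted p = 3.4e-08) and Slc39a14 (-2.21, adjusted p = 4.96e-08) were furthest below it. Of carriers called against Media in Hevin and not in LPS, Slc39a4 (1.05, adjusted p = 7.95e-05) was higher and Slc1a5 (-0.90, adjusted p = 2.44e-05) lower in Hevin than in LPS. By class, 7 of 11 sugar carriers were higher and 1 lower, and 5 of 24 metal carriers were higher and 12 lower. Of 8 lipid carriers, 6 were higher and 2 lower in Hevin.

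Hevin and LPS share the Media libraries, so the values of 12 carriers, picked after they were seen, are only set side by side. For Slc27a1 the log2 fold changes were 0.81 in Hevin and -0.96 in LPS, and for Slc17a5 they were 0.56 and -0.72. For Slc8a1 they were 0.54 in Hevin and -0.79 in LPS, and for Slc43a2 they were 0.69 and -0.65. For Slc39a14 they were -0.49 in Hevin and 1.72 in LPS, and for Slc38a1 they were -0.29 and 0.78. Slc46a3 had -0.69 in Hevin and -1.0 in LPS, and Slc44a1 had 0.40 and 1.65. Slc4a11 had -0.83 in Hevin and -0.43 in LPS, and Slc7a5 had -0.64 and -0.22. Slc7a8 had 0.83 in Hevin and 0.33 in LPS, and the scaffold gene Slc9a3r1 had 0.38 and 0.84. Without the block the Hevin calls of Slc8a1, Slc43a2, Slc39a14, Slc38a1 and Slc44a1 ended, as did the LPS calls of Slc8a1, Slc43a2, Slc7a5 and Slc7a8.

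Genes that regulate or partner carriers were taken as a list of 19, of which 16 were tested. In Hevin 7 (43.8%) were called, each of them lower, beside 21.4% of all genes, and the list's median log2 fold change was -0.22, beside 0.00 over all genes. In LPS 5 were lower and 5 higher (62.5%, beside 43.7% of all genes). Without the block, 4 of the 7 calls in Hevin and 8 of the 10 in LPS were kept. The metallothionein genes Mt1 and Mt2, whose proteins bind zinc and copper, averaged 122.7 ± 12.9 and 21.7 ± 5.23 FPKM in Hevin, 280 ± 20.1 and 173 ± 69.8 in LPS, and 192 ± 31.2 and 44.3 ± 10.1 in Media. Both were lower in Hevin (limma adjusted p = 0.000199 for Mt1 and 0.0219 for Mt2) and higher in LPS (0.000214 and 0.000242). Mtf1, the zinc-sensing transcription factor of metallothionein genes, was higher in LPS, at 12.3 FPKM against 8.10 in Media (adjusted p = 0.000452). Atf4, the transcription factor of amino acid shortage, averaged 538 ± 43.8 FPKM in Hevin, 882 ± 72.8 in LPS and 669 ± 34.8 in Media, lower in Hevin (adjusted p = 0.00218) and higher in LPS (adjusted p = 0.000191). Tfeb, a transcription factor of lysosomal genes, fell to 4.0 ± 2.12 FPKM in LPS, against 10.6 in Media (adjusted p = 0.00014).

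Of 26 carriers known by other names, 20 were tested, with 2 higher and 1 lower in Hevin and 3 higher and 6 lower in LPS. These shares, 15% in Hevin and 45% in LPS, lie under or near the 21.4% and 43.7% of all genes, and without the block 0 of the 3 calls in Hevin and 5 of the 9 in LPS were kept. Ank, which releases pyrophosphate and citrate from cells, averaged 103 ± 17.9 FPKM in Hevin, 21.2 ± 10.4 in LPS and 55.5 ± 11.8 in Media. It was higher in Hevin (limma adjusted p = 0.000846, and 0.0724 without the block) and lower in LPS (adjusted p = 9.79e-06). Mfsd12, a lysosomal cysteine importer, averaged 24.7 ± 13.9 FPKM in LPS and 58.2 ± 16.2 in Media (adjusted p = 0.000227).

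Carriers also differed between the replicate numbers, which is described here without a test. In 20 of the 164 tested carriers the highest mean of a number was at least 3-fold the lowest, against a median of 1.38-fold, and 16 of the 20 were highest in number 3 while 18 were lowest in number 1. Slc38a3, which carries glutamine, averaged 0.282, 2.41, 3.48 and 2.46 FPKM in numbers 1 to 4 over the 3 groups. Slc22a8, an organic anion carrier, averaged 0.260, 2.37, 2.00 and 1.61 FPKM, and Slc6a17, a vesicular carrier of neutral amino acids in neurons, averaged 0.834, 2.15, 6.31 and 4.33. Beside these low carriers stand the marker sums, in which choroid plexus and ependymal genes were lowest in number 1 and highest in number 3, and endothelial genes summed to 23.8 to 27.1 FPKM in number 1 and to 135 to 152 in number 3. The part of those cells in the values was not tested. Slc15a2 had another order, with 9.48, 14, 2.41 and 3.83 FPKM in numbers 1 to 4.

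**Figure D5:**
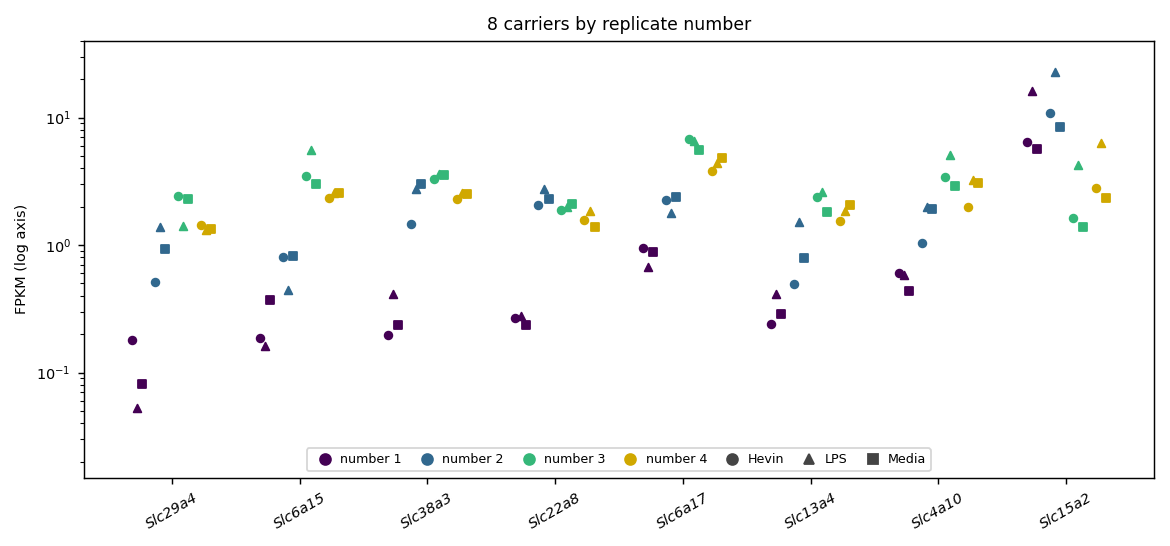
FPKM (log axis) of 8 carriers in each of the 12 libraries, coloured by replicate number, with circles for Hevin, triangles for LPS and squares for Media. Libraries of a number lie near each other for most carriers, and the mean of number 1 is lowest for each carrier shown except Slc15a2.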

How the data were processed

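The authors deposited FPKM values for 14541 genes by symbol in 12 libraries of stranded poly(A) RNA. The build mm10 and the tools edgeR 3.30.3, R 4.0.0, Subread 1.6.3, featureCounts, Bowtie2 2.3.5.1, Trimmomatic 0.39 and FastQC 0.11.7 appear in the submitters' processing notes, while the sources used here do not give annotation, row filter or use of strand. The deposited FPKM values are whole multiples of 1 read in 100% of rows (within 0.1 read), and they sum to 414957 to 430248 in LPS libraries and to 298271 to 330239 in the others.

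The members, classes, gene lists, motifs and rule for named genes were chosen with earlier results of these data known. A limma 3.58.1 fit (R 4.3.3, eBayes with trend) on log2(FPKM + 1) took in 11242 genes that reached 1 FPKM in 4 or more libraries, had the replicate number as a block, and used Benjamini-Hochberg adjustment over all of them with 0.05 as threshold. The titles repeat the same numbers in each group. Pairing by number was fixed together with the choice of carriers. Deviations from group means correlated in 12 of 12 same-numbered pairs (r from 0.230 to 0.784, mean 0.63). In 36 pairs of unlike numbers r ran from -0.592 to 0.528 (mean -0.201). Numbers 3 and 4 were not set apart, since LPS 4 had r = 0.528 with Media 3 and 0.230 with Media 4. The fit was tested on simulated data. By rule, the text could name per treatment 12 called carriers at each end of the fold changes (8 for Hevin against LPS), given a mean of 2 FPKM in 1 group, and per class the smallest p and the highest Media mean; it leaves some out, and others were added after their values were seen. Alternatives were no block, pseudocounts of 0.1 and 5, no filter, quantile normalization, upper quartile scaling, limma-voom on recovered reads, and leaving out each library or all of number 2. GENCODE M21 held all 216 carriers, of which 10 share exonic bases with another gene on the same strand and 50 on the opposite strand. RefSeq promoters (GRCm38.p6) were matched for 166 carriers. Figures were drawn with matplotlib 3.10.9. The values of 2 carriers are not reported here, although the counts include them.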

Additional observations from a re-analysis of the deposited data

Results flagged for a closer look

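In 5 of 168 groups of 4 libraries checked (56 named carriers in 3 groups), 1 library lay far from the other 3. Chance alone puts about 1 group in 20 in that position. Slc46a3 had 2.08 FPKM in Hevin 1, below the others of its group. Slc27a4 had 24.3 FPKM in LPS 1 and Slc7a1 had 80.1 FPKM in LPS 2, both above the others of LPS. Slc17a5 had 8.45 FPKM in Media 1 and Slc27a1 had 10.5 FPKM in Media 4, both above the others of Media. The calls of Slc46a3, Slc17a5 and Slc27a1 against Media were kept in each alternative run. The call of Slc7a1 in LPS (adjusted p = 0.0333 with limma) ended in 11 alternatives, with adjusted p from 0.02 to 0.248. Its direction turned with quantile normalization.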

How the results depend on the processing

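The replicate block decides how many carriers are called. Without the block, 8 carriers were higher and 5 lower in Hevin than in Media (21 and 21 with it), 22 higher and 25 lower in LPS than in Media (37 and 49), and 40 higher and 33 lower in Hevin than in LPS (54 and 45). Leaving out 1 library at a time gave 15 to 25 higher and 11 to 23 lower carriers for Hevin against Media, 30 to 37 and 34 to 48 for LPS against Media, and 46 to 55 and 38 to 47 for Hevin against LPS. Without all libraries numbered 2 the counts were 16 and 20, 34 and 43, and 49 and 41. With limma-voom on recovered reads all 42 calls in Hevin, 84 of 86 in LPS and 97 of 99 between the treatments were kept. Quantile normalization turned the direction of 3 called results among those the naming rule picked. These were Slc3a2 in LPS against Media (-0.48), Slc3a2 in Hevin against LPS (0.43) and Slc15a3 in Hevin against LPS (0.07). Outside that rule it also turned the calls of Slc38a2 in LPS against Media and in Hevin against LPS, and of Slc7a1 in LPS against Media. The cause was not tested. Over the named carriers, 2107 of the values under alternatives stayed on their side of the threshold. Called ones among these kept their direction, and the others moved by less than 1 SE, with direction not checked. Another 91 lost the call, 16 gained one and 13 moved by more than 1 SE without a call. Calls of carriers under about 1 FPKM are limited by the added pseudocount, and overlapping genes by the unstated use of strand.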
